A study of Mus musculus with 6 samples.

Results

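The genes described here are 36 genes of sterol and fatty acid synthesis, picked by symbol from a list of genes driven by the sterol regulatory element binding proteins (SREBPs), out of 50600 genes in the count files. They form a sterol arm of 21 genes, a fatty acid arm of 10 genes and 5 regulators, and all 36 passed the filter on low counts. The RNA, selected by its poly(A) tail, came from the thymus of mice 8 to 10 weeks old, from cortical thymic epithelial cells (cTECs), the epithelium of its cortex, which guides early T cell selection. The mutant cells came from mice of strain B6.B6CB-Psmb11tm1Smta (Psmb11-/-, called KO) and their counterparts from Psmb11+/+ mice of the same strain name (called WT), with 3 libraries of each, A to C. Psmb11 encodes β5t, a subunit of the thymoproteasome, the form of the proteasome made by cTECs. Whether the libraries of a genotype came from separate mice or from pools is not stated, so the p-values cover the spread between libraries only, which may be technical.

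Cells build cholesterol from acetyl-CoA through mevalonate, isoprenoid chains, squalene and a series of sterol intermediates, and they build fatty acids from the same acetyl-CoA. SREBP precursors sit in the membrane of the endoplasmic reticulum bound to the escort protein Scap, and Insig proteins hold the complex there while sterols are plentiful. When sterols run low the complex moves to the Golgi, where proteases release the part of SREBP that enters the nucleus and activates genes of both arms. In mouse liver the product of Srebf2 acts mainly on sterol genes and the shorter product of Srebf1 mainly on fatty acid genes, often beside the factors NF-Y and Sp1.

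The promoters of 3 members are shown because their genes carry results of each arm. Hmgcs1 held the only match to the core of the sterol response element among the members with a promoter window, Mvk had one of the larger falls of the sterol arm and the most NF-Y boxes of these windows, and Fasn had the lowest adjusted p-value of all 36 genes. Mvk and Fasn were picked after their values were seen. Each line gives the 250 bases before the RefSeq start site, 5′ to 3′ on the gene's strand (build GRCm38.p6), with capitals for the sterol response element core TCACNCCAC and the NF-Y box CCAAT on either strand (ATTGG when read from the opposite strand).
Hmgcs1, chr13:119690101-119690350, plus strand: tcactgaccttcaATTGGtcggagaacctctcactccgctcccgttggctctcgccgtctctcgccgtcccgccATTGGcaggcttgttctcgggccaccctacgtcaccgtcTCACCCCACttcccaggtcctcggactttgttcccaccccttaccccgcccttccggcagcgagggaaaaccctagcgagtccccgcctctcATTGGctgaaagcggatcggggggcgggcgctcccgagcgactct
Mvk, chr5:114444019-114444268, plus strand: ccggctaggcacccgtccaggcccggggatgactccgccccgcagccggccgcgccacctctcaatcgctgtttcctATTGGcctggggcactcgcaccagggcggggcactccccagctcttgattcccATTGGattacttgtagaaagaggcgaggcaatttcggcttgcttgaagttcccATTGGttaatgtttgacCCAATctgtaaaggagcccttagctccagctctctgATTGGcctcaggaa
Fasn, chr11:120824548-120824797, minus strand: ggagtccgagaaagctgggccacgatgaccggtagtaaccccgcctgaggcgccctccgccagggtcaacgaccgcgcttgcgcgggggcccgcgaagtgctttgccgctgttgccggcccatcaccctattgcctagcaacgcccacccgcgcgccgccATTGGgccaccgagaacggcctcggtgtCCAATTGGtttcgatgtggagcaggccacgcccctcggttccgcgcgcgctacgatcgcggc
In the Hmgcs1 window the core match was a single one and stood with 3 NF-Y boxes. The Mvk window held 5 NF-Y boxes, and the Fasn window held 3, of which a pair overlapped.

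RefSeq windows were used for 29 of the 36 genes, the others being Fdps, Fdft1, Sqle, Stard4, Scd1, Scd2 and Fads1. A gene counted as holding a motif if any of its windows did. The Acaca window (84195188 to 84195437) lay inside the annotated gene (84129672 to 84401651, plus strand) and held no match. The shares of the fatty acid arm therefore rest on few promoters. The NF-Y box was in 16 of 17 sterol arm genes (94.1%), 3 of 7 fatty acid genes (42.9%) and 4 of 5 regulators, against 39.8% of 11843 genes tested that had a window and 33.8% of all 32851 RefSeq windows. The Sp1 box (GGGCGG, either strand) was in 15 of 17 sterol arm genes, 3 of 7 fatty acid genes and 5 of 5 regulators, against 60.9% of the genes tested and 32.7% of all windows. The sterol response element core was in 1.27% of the genes tested and 1.05% of all windows. The E-box (CACGTG), which SREBPs can also bind, was in 6 of the 29 members, 9.35% of the genes tested and 6.02% of all windows. The NF-Y box was in 14 of 18 members that were lower in KO and in 9 of 11 that were not. Matches could overlap one another, as in Fasn. A match describes the letters only and does not show that a factor binds there.

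**Figure D1:**
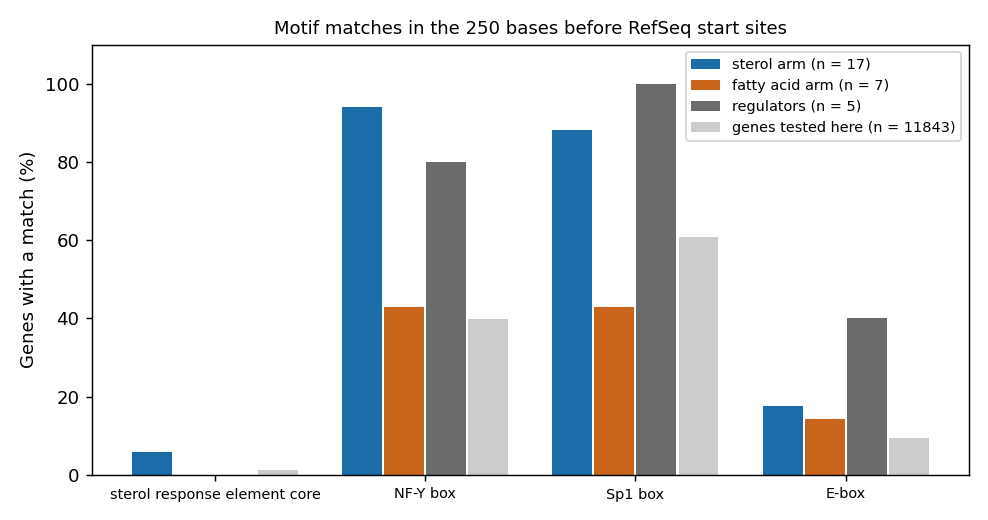
Share of genes (%, vertical axis) with at least 1 match to each motif in the 250 bases before a RefSeq start site, for the sterol arm, the fatty acid arm, the regulators and all genes tested that had a window. The NF-Y box was in 94.1% of sterol arm genes and 42.9% of fatty acid genes, against 39.8% of genes tested. The Acaca window, counted in the fatty acid arm, lies inside the gene.

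Gene counts per library ranged over 34265035 to 36713388 in KO and 34660349 to 39224292 in WT. Psmb11 had 36 to 67 counts in KO and 8293 to 10027 in WT, as the labels imply. All libraries carried cTEC markers, but the levels of markers of several cell types differed between genotypes. Of 12 cTEC markers, Psmb11 among them, 10 were lower and 1 higher in KO, with summed levels of 3268 to 3916 CPM (counts per gene scaled to a common library size with TMM factors) in KO and 5997 to 6286 CPM in WT. Higher in KO were 9 of 9 medullary epithelial markers (5336 to 5718 CPM in KO libraries, 3967 to 4536 CPM in WT libraries) and 6 of 6 tuft cell markers (159 to 203 CPM in KO libraries, 100.1 to 110.4 CPM in WT libraries). So were 6 of 8 fibroblast and pericyte markers (1199 to 1303 CPM in KO libraries, 848 to 948 CPM in WT libraries) and 8 of 9 dendritic cell and macrophage markers (64.9 to 74.2 CPM in KO libraries, 34.0 to 37.7 CPM in WT libraries). Over all genes tested, 10.7% were called lower and 12.3% higher in KO, at the threshold given below. None of 11 tested thymocyte markers was called, and none of the B cell or endothelial markers. Of 9 adipocyte markers, which bear on lipid synthesis, 1 passed the filter on low counts and 0 were called: Adipoq averaged 0.0195 CPM in KO libraries and 0.00928 CPM in WT libraries, Plin1 and Lep were at 0 in all WT libraries, and the summed level of 4.50 to 11.6 CPM in KO libraries and 5.78 to 9.70 CPM in WT libraries was mostly Fabp4. In these bulk samples fewer cells of a type and less RNA per cell cannot be told apart, and the part of these markers in the results below was not tested.

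Most of the pathway was lower in KO. Of the 36 genes 22 were lower and 2 higher (edgeR quasi-likelihood test, Benjamini-Hochberg adjusted p below 0.05 over 16938 genes), against 10.7% of all genes tested called lower and 12.3% called higher (23.0% in either direction). The called falls were modest, 1.17-fold to 2.10-fold with a median of 1.36-fold. The largest was that of Fdps, which rests on 24 to 61 counts per KO library, and the next was 1.62-fold (Fdft1). All KO libraries lay below all WT libraries for 26 of the 36 genes (20.0% of all genes tested) and above them for 4 (19.2% of all genes tested). All 24 called genes were among these 30. Log2 fold changes are KO over WT, and each SE is on the log2 scale.

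**Figure D2:**
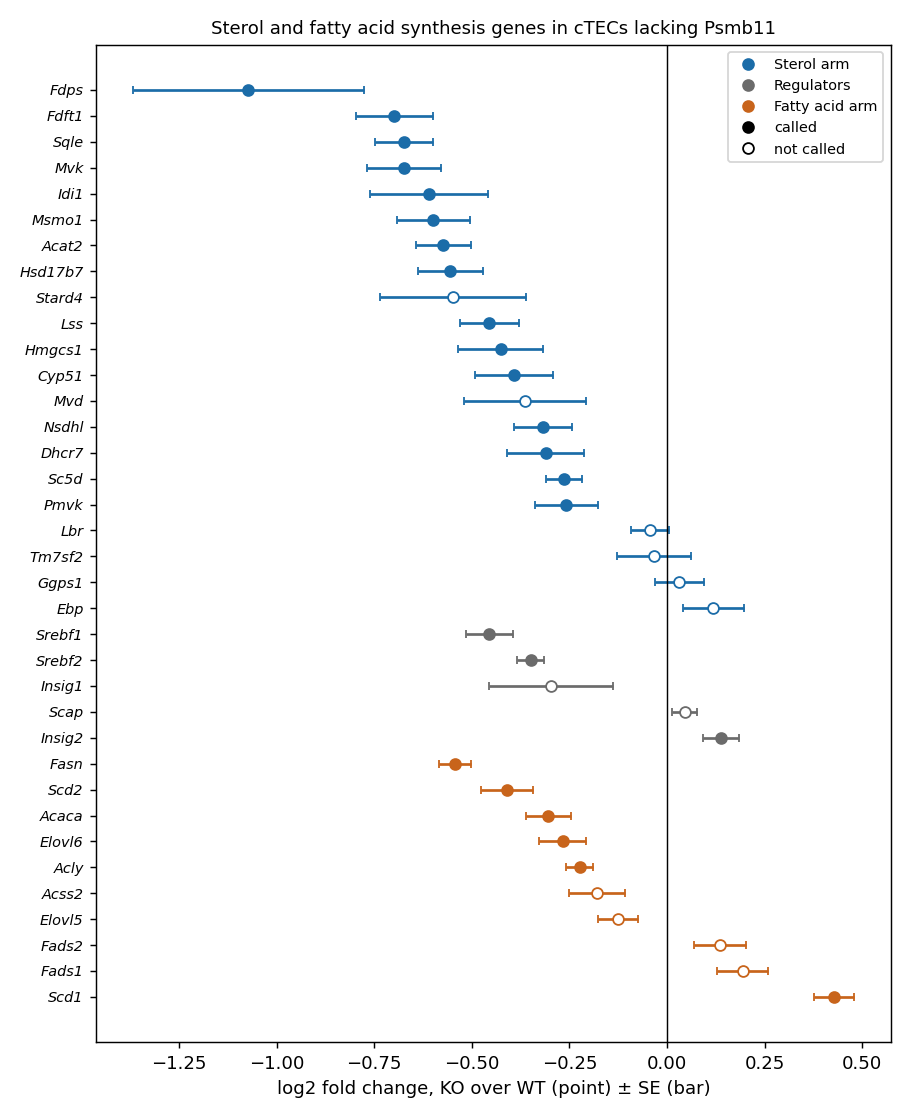
Log2 fold change (horizontal axis, KO over WT) of each of the 36 genes, with its SE as a bar derived from the test statistic. Filled points were called and open points were not. Most sterol arm genes lie left of 0, down to -1.07 for Fdps (24 to 106 counts per library), while Scd1 of the fatty acid arm lies at 0.43.

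Both SREBP genes were lower in KO. Srebf2 (ENSMUSG00000022463.7, chromosome 15, 82147181 to 82205379, plus strand, GRCm38) encodes the SREBP that drives sterol genes. It had 311, 306 and 293 CPM in KO libraries A, B and C, against 387, 388 and 384 CPM in WT libraries A, B and C. The libraries of each genotype lay close together and the genotypes were well apart, with a log2 fold change of -0.35 (SE 0.034, adjusted p = 3.26e-05). Srebf1, the other SREBP gene, had 328, 329.8 and 282 CPM in KO libraries, against 438, 451 and 399 CPM in WT libraries. KO library C was the lowest, no libraries overlapped, and the log2 fold change was -0.46 (SE 0.060, adjusted p = 2.33e-04). Gene counts do not separate the long and short products of Srebf1. Per length it was the most abundant of the 36 genes, at 175 ± 16.5 TPM (the deposited abundance scaled for length) in KO libraries and 237 ± 18.7 TPM in WT libraries (SD, n = 3 each).

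None of the escort and retention genes was called lower. Scap, the escort, had 136 ± 1.90 CPM in KO libraries and 132 ± 1.23 CPM in WT libraries and was not called (log2 fold change 0.045, adjusted p = 0.362 with edgeR, n = 3 each). Insig2 had 53.2, 55.5 and 51.1 CPM in KO libraries, against 47.4, 50.3 and 47.6 CPM in WT libraries, a small rise without overlap (log2 fold change 0.14, SE 0.046, adjusted p = 0.0457). That call was lost under 10 of 17 alternative settings, among them leaving out any library but KO library C (log2 fold changes of 0.11 to 0.17 over the libraries left out, adjusted p 0.0236 to 0.157 over all alternatives). Insig1, which is itself an SREBP target, had 18.0, 28.2 and 16.3 CPM in KO libraries, against 27.96, 26.6 and 22.5 CPM in WT libraries. Its genotypes overlapped because KO library B was the highest of all 6, and it was not called (log2 fold change -0.30, adjusted p = 0.208). Without KO library B the Insig1 log2 fold change was -0.58 and it was called, while without KO library C it was -0.15 and without KO library A -0.20, and it was not called.

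In the sterol arm 15 of 21 genes were lower in KO (71.4%) and 0 were higher, against 10.7% and 12.3% of all genes tested. The median log2 fold change was -0.43 against -0.00082 over all genes tested. All KO libraries lay below all WT libraries for 17 of the 21 (20.0% of all genes tested). The falls ran from the entry of the pathway to its last steps.

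The mevalonate segment makes the isoprenoid building block from acetyl-CoA, and 4 of its 5 genes were lower. Acat2, the cytosolic thiolase that joins acetyl-CoA units, had 15.0, 16.4 and 14.2 CPM in KO libraries, against 23.5, 22.0 and 22.3 CPM in WT libraries, a log2 fold change of -0.57 (SE 0.070, adjusted p = 1.29e-04). Mvk, mevalonate kinase, whose promoter is printed above, had 16.2, 17.1 and 12.7 CPM in KO libraries, against 25.2, 23.3 and 25.0 CPM in WT libraries. For both genes every KO library was well below every WT library, and Mvk had a log2 fold change of -0.67 (SE 0.10, adjusted p = 3.56e-04). Hmgcs1, the synthase that makes HMG-CoA, carries the sterol response element core shown above. It had 74.8, 97.5 and 67.7 CPM in KO libraries, against 121, 103 and 98.9 CPM in WT libraries, so that KO library B came close to WT library C (log2 fold change -0.43, SE 0.11, adjusted p = 0.0140). The Hmgcs1 call was lost under 6 of 17 alternatives, among them without KO library C (log2 fold change -0.32) and without WT library A (-0.33).

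Pmvk, phosphomevalonate kinase, had 14.7, 12.7 and 13.7 CPM in KO libraries, against 16.5, 15.3 and 17.3 CPM in WT libraries (log2 fold change -0.26, SE 0.081, adjusted p = 0.0377). The genotypes did not overlap, but the call was lost under 7 of 17 alternatives, among them without KO library B or C or WT library A or C (log2 fold changes of -0.31 to -0.21 over the libraries left out). Mvd, the decarboxylase that ends the segment, had 5.44, 5.64 and 3.72 CPM in KO libraries, against 7.03, 5.82 and 6.24 CPM in WT libraries, and was not called (log2 fold change -0.36, adjusted p = 0.118; -0.20 without KO library C).

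The isoprenoid segment leads toward sterols and toward prenylation of proteins, and 2 of its 3 genes were lower. Idi1, the isomerase of the building block, had 5.58, 5.02 and 3.54 CPM in KO libraries, against 7.66, 6.99 and 6.99 CPM in WT libraries (log2 fold change -0.61, SE 0.15, adjusted p = 0.0122). Fdps, farnesyl diphosphate synthase, stands at the branch point and had 0.997, 1.66 and 0.702 CPM in KO libraries, against 3.08, 2.09 and 1.94 CPM in WT libraries (log2 fold change -1.07, SE 0.30, adjusted p = 0.0208). Neither gene overlapped between genotypes. The Fdps levels rest on 24 to 61 counts per KO library and 75 to 106 counts per WT library, and the call was lost without KO library A, KO library C or WT library A (log2 fold changes of -1.47 to -0.83 over the libraries left out). The authors' RSEM expected counts, which also share out reads that map to several places, held 17.4 times as many Fdps reads and 5.44 times as many Idi1 reads, against 1.54 times for Acat2, 1.37 times for Acaca and 0.816 to 1.05 times for the other 32 genes. Fdps also shares exons on its own strand with the annotated gene Gm43738, so its count per gene is uncertain. By RSEM, Fdps had 35.8, 43.7 and 30.5 TPM in KO libraries, against 68.0, 58.7 and 63.4 TPM in WT libraries, so both quantifications put it lower in every KO library. With expected counts in edgeR the log2 fold change was -0.83 for Fdps and -0.69 for Idi1, and both were called; the Idi1 call was lost with limma on log2(TPM + 0.1). Ggps1, which makes the longer chain used for geranylgeranylation, had 34.9 ± 3.26 CPM in KO libraries and 34.2 ± 0.671 CPM in WT libraries and was not called (log2 fold change 0.031, adjusted p = 0.773 with edgeR, n = 3 each).

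From squalene to cholesterol, 9 of 12 genes were lower. Sqle, squalene epoxidase, a control point of the pathway, had 72.4, 73.1 and 57.0 CPM in KO libraries, against 111, 107 and 106 CPM in WT libraries (chromosome 15, 59315077 to 59331192, plus strand, GRCm38). The WT libraries lay close together and every KO library was far below them, with a log2 fold change of -0.67 (SE 0.074, adjusted p = 6.44e-05). Fdft1, squalene synthase, which commits farnesyl units to sterols, had 49.0, 51.0 and 38.1 CPM in KO libraries, against 84.6, 72.2 and 67.7 CPM in WT libraries, a fall of 1.62-fold (log2 fold change -0.70, SE 0.10, adjusted p = 3.52e-04). Its exons overlap those of Ctsb on the opposite strand, which counting by strand keeps apart. Lss, the cyclase that forms lanosterol, had 43.3, 52.8 and 43.3 CPM in KO libraries, against 69.2, 62.9 and 59.2 CPM in WT libraries, and it fell 1.37-fold (SE 0.076, adjusted p = 0.00110), a call that was lost with limma on either TPM scale.

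Of the enzymes that trim lanosterol, Msmo1, Hsd17b7, Nsdhl and Cyp51 were lower as well, while the C14 reductases given below were not called. Msmo1, the C4 methyl oxidase, had 33.7, 38.1 and 27.5 CPM in KO libraries, against 55.1, 48.4 and 47.3 CPM in WT libraries, and fell 1.51-fold (SE 0.095, adjusted p = 7.42e-04). Hsd17b7, the 3-keto reductase of the same demethylation, had 26.6, 26.9 and 20.9 CPM in KO libraries, against 37.8, 34.6 and 37.1 CPM in WT libraries, and fell 1.47-fold (SE 0.083, adjusted p = 5.01e-04). Neither overlapped between genotypes, and KO library C was the lowest for both. Nsdhl, the dehydrogenase of that step, had 24.3, 23.1 and 19.5 CPM in KO libraries, against 26.8, 28.6 and 28.1 CPM in WT libraries, and fell 1.25-fold (SE 0.075, adjusted p = 0.00888), also a call lost with limma on TPM. Cyp51, the lanosterol demethylase, had 23.1, 27.4 and 20.4 CPM in KO libraries, against 34.95, 30.0 and 28.3 CPM in WT libraries (log2 fold change -0.39, SE 0.10, adjusted p = 0.0134). KO library B lay just under WT library C, and the call was lost under 4 of 17 alternatives, among them without KO library C (log2 fold change -0.30) and without WT library A (-0.30).

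Sc5d, the C5 desaturase, was the most abundant sterol gene per length, at 112 ± 7.67 TPM in KO libraries and 132 ± 1.96 TPM in WT libraries (SD, n = 3 each). It had 171, 172 and 152 CPM in KO libraries, against 204, 194 and 198 CPM in WT libraries, a fall without overlap (log2 fold change -0.26, SE 0.047, adjusted p = 0.00158). Dhcr7, which makes cholesterol from 7-dehydrocholesterol, had 10.5, 11.2 and 8.98 CPM in KO libraries, against 13.6, 12.1 and 12.3 CPM in WT libraries (log2 fold change -0.31, SE 0.10, adjusted p = 0.0395). Its call was lost under 9 of 17 alternatives, among them leaving out any library but KO library B (log2 fold changes of -0.38 to -0.23 over the libraries left out).

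The other sterol genes were not called. Lbr and Tm7sf2 encode alternative C14 reductases of the pathway, and Lbr is also a protein of the inner nuclear membrane. Lbr had 28.8 ± 0.742 CPM in KO libraries and 29.7 ± 0.536 CPM in WT libraries (log2 fold change -0.043, SE 0.049), and Tm7sf2 had 10.3 ± 0.799 CPM in KO libraries and 10.6 ± 0.771 CPM in WT libraries (log2 fold change -0.033, SE 0.10; n = 3 each). Tm7sf2 shares exons with Vps51 on the same strand, so its counts are uncertain. Ebp, the sterol isomerase, had 15.0 ± 0.308 CPM in KO libraries and 13.8 ± 0.997 CPM in WT libraries (log2 fold change 0.12, adjusted p = 0.309 with edgeR). In TPM, Ebp had 25.4, 26.5 and 23.1 in KO libraries, against 17.9, 18.0 and 22.0 in WT libraries, with no overlap, and limma on log2(TPM + 1) gave a log2 fold change of 0.36 that was not called either (adjusted p = 0.0597). Of the 21 sterol genes, Lbr, Tm7sf2, Ebp and Ggps1 overlapped between genotypes in CPM. Stard4, a cytosolic carrier of sterol, had 5.58, 7.54 and 3.80 CPM in KO libraries, against 8.71, 7.55 and 8.55 CPM in WT libraries. KO library B almost touched WT library B, and the gene missed the threshold (log2 fold change -0.55, SE 0.19, adjusted p = 0.0535), being called under 4 of 17 alternatives (adjusted p from 2.23e-04 to 0.422). Its log2 fold change was -0.81 without KO library B and -0.34 without KO library C.

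**Figure D3:**
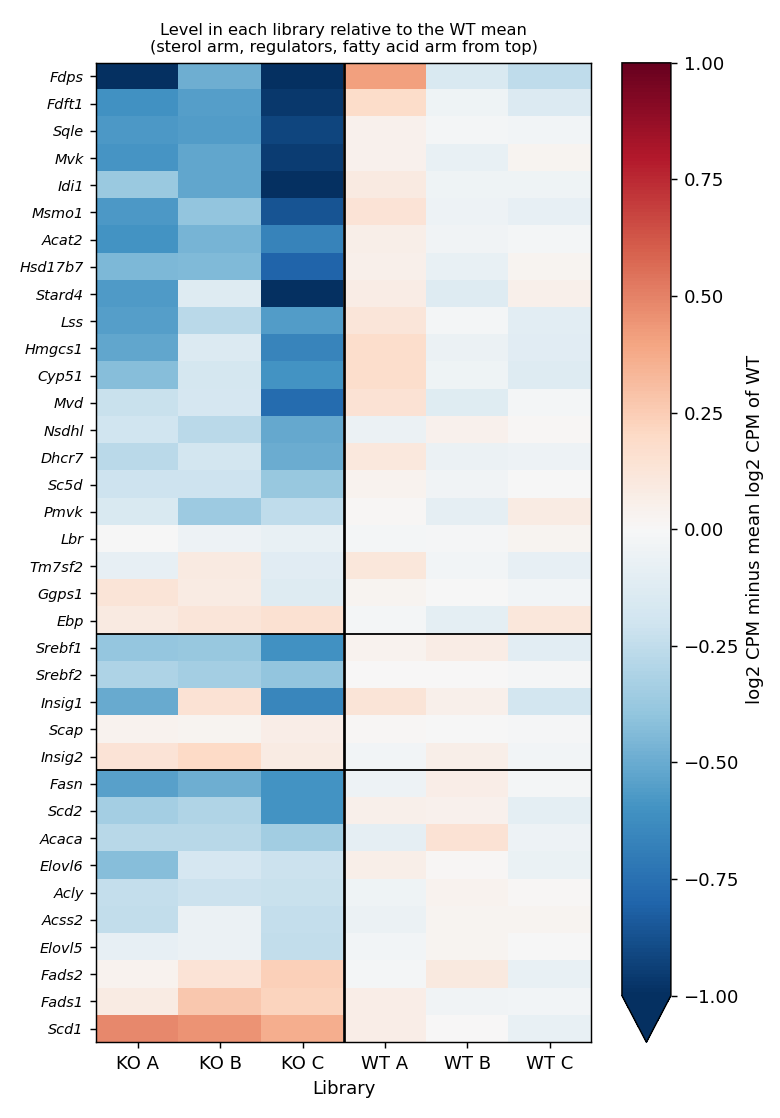
Level of each of the 36 genes (rows) in each library (columns, KO left of WT), as log2 CPM minus the mean log2 CPM of the 3 WT libraries; values below -1 take the darkest blue. KO library C is the lowest of all 6 libraries for 19 of 21 sterol arm genes and for 4 of 10 fatty acid genes.

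The fatty acid arm was more mixed. Of its 10 genes 5 were lower in KO and 1 was higher, against 10.7% and 12.3% of all genes tested, so the share called higher was near that of all genes. The median log2 fold change was -0.20. In the segment that supplies acetyl-CoA and builds the chain, 3 of 4 genes were lower. Fasn, fatty acid synthase, whose promoter is printed above, had 311, 322 and 299 CPM in KO libraries, against 438, 474 and 446 CPM in WT libraries (ENSMUSG00000025153.9, chromosome 11, 120805846 to 120824547, minus strand, GRCm38). No KO library came near a WT library, and the adjusted p of 5.15e-06 was the lowest of the 36 genes (log2 fold change -0.54, SE 0.041). Acaca, the carboxylase that makes malonyl-CoA, had 47.7, 47.8 and 45.7 CPM in KO libraries, against 54.4, 64.0 and 55.9 CPM in WT libraries, a fall of 1.23-fold (SE 0.058, adjusted p = 0.00251). Acly, which splits citrate to acetyl-CoA, had 144, 146 and 145 CPM in KO libraries, against 165, 173 and 170.4 CPM in WT libraries, a fall of 1.17-fold (SE 0.034, adjusted p = 5.75e-04). Both falls were small, the genotypes did not overlap, and both calls were lost with limma on log2(TPM + 1) and log2(TPM + 0.1). Acss2, which makes acetyl-CoA from acetate, had 16.3, 18.5 and 16.4 CPM in KO libraries, against 18.6, 19.7 and 19.7 CPM in WT libraries, and was not called (log2 fold change -0.18, adjusted p = 0.0916).

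The desaturases Scd1 and Scd2 moved in opposite directions. They are neighbouring genes on chromosome 19 that encode stearoyl-CoA desaturases, which make monounsaturated fatty acids. Scd2 had 439.7, 451 and 368 CPM in KO libraries, against 578, 572 and 521 CPM in WT libraries, and it fell 1.33-fold (log2 fold change -0.41, SE 0.067, adjusted p = 9.00e-04). Scd1 had 48.4, 47.5 and 44.7 CPM in KO libraries, against 36.6, 34.98 and 33.0 CPM in WT libraries, and it rose 1.35-fold (log2 fold change 0.43, SE 0.051, adjusted p = 1.16e-04). Neither gene overlapped between genotypes, and both calls held under all 17 alternatives. Per length Scd2 was the major form, at 149.6 ± 15.7 TPM in KO libraries and 194 ± 11.03 TPM in WT libraries, while Scd1 had 17.6 ± 0.755 TPM in KO libraries and 12.8 ± 0.658 TPM in WT libraries. The ratio of Scd1 to Scd2 in TPM was 0.117, 0.111 and 0.127 in KO libraries, against 0.0671, 0.0644 and 0.0667 in WT libraries. With each gene already apart in opposite directions, the ratio could not overlap. It was chosen after the values were seen and is given as a description.

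Of the other 4 genes, which elongate chains or make polyunsaturated ones, 1 was called. Elovl6, which elongates palmitate, had 50.9, 60.8 and 58.8 CPM in KO libraries, against 71.1, 68.8 and 65.3 CPM in WT libraries, and fell 1.203-fold (SE 0.061, adjusted p = 0.00737), a call lost with limma on TPM. Elovl5, which elongates polyunsaturated chains, had 49.3 ± 3.35 CPM in KO libraries and 53.8 ± 1.002 CPM in WT libraries and was not called (log2 fold change -0.13, adjusted p = 0.0963 with edgeR). Fads1, the Δ5 desaturase, had 22.0, 25.0 and 24.3 CPM in KO libraries, against 21.7, 20.3 and 20.3 CPM in WT libraries. Every KO library was above every WT library, but the gene missed the threshold (log2 fold change 0.19, SE 0.066, adjusted p = 0.0506), being called under 5 of 17 alternatives (adjusted p from 0.0160 to 0.158). Fads2, the Δ6 desaturase, had 27.0 ± 1.92 CPM in KO libraries and 24.6 ± 1.48 CPM in WT libraries, with overlap (log2 fold change 0.14, adjusted p = 0.171 with edgeR).

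Set side by side, the sterol arm had the lower median (-0.43 against -0.20 on the log2 scale, a difference of -0.22). Leaving out single libraries moved that difference between -0.32 and -0.12, the smallest without WT library A and the next, -0.13, without KO library C. Since the members were chosen with earlier results known, the difference between the arms is given as a description, with no test. Summed over its genes, the sterol arm had 557, 601 and 474 TPM in KO libraries, against 732, 695 and 710.4 TPM in WT libraries, a mean 23.6% lower in KO. The fatty acid arm had 467, 471 and 430.0 TPM in KO libraries, against 555, 577 and 525 TPM in WT libraries, a mean 17.5% lower in KO. Its segments differed. Summed TPM was 22.2% lower for acetyl-CoA supply and chain building (median log2 fold change -0.26) and 13.5% lower for elongation and desaturation (median 0.0051). Most of the fall in the sum came from its most abundant genes, Fasn (99.5 TPM in KO, 144 TPM in WT) and Scd2 (149.6 TPM in KO, 194 TPM in WT). In each arm every KO library lay below every WT library, and KO library C was the lowest. The highest KO library was 1.28 times the lowest for the median sterol gene and 1.14 times for the median fatty acid gene, while among WT libraries these ratios were 1.13 and 1.09.

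**Figure D4:**
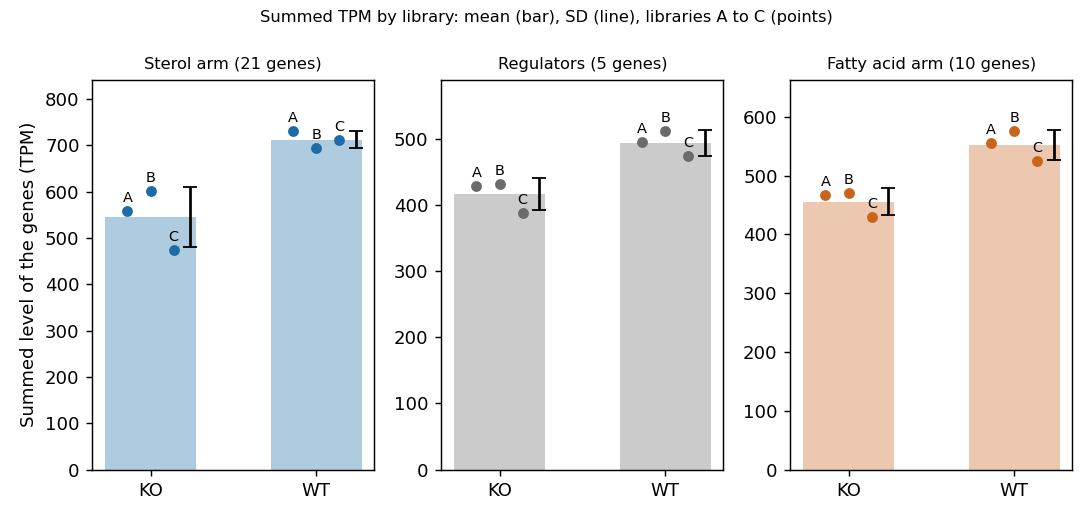
Summed level in TPM (vertical axis, from 0) of the sterol arm, the regulators and the fatty acid arm in each library; bars are means, lines are SD (n = 3 each) and points are libraries A to C, KO left of WT. In each panel all 3 KO libraries lie below all 3 WT libraries, at 474 to 601 TPM against 695 to 732 TPM in the sterol arm. Srebf1 and Srebf2 make up most of the regulators' sum. Scap (mean 68.8 TPM in KO, 63.0 TPM in WT) and Insig2 (48.5 TPM in KO, 41.5 TPM in WT) were higher in KO.

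KO library C was the lowest of all 6 libraries for 19 of 21 sterol genes, and WT library A was the highest WT library for 17 of 21. Without KO library C, or without WT library A, 10 sterol genes were called lower. Without KO libraries A and B in turn the counts were 13 and 15, and without WT libraries B and C they were 14 and 13. Calls over all genes tested dropped too when a library was left out. With all libraries 1820 genes were called lower, against 1552 without KO library C and 1302 without WT library A. Without KO libraries A and B they numbered 1615 and 1454, and without WT libraries B and C 1252 and 1152. The fatty acid falls numbered 5 or 6 whichever library was left out. The summed cTEC markers stood at 3916, 3458 and 3268 CPM in KO libraries A, B and C. Their highest KO library was A, and that of 15 of 21 sterol genes was B. Any relation between these orders was not tested. With limma on log2(TPM + 1), 9 sterol genes and 2 fatty acid genes were called lower, against 1927 genes called in all.

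Genes around the pathway, from wider lists, gave calls in both directions. Among sterol enzymes outside the 36, Cyp27a1, a sterol hydroxylase, fell 1.17-fold, and Ch25h, which makes 25-hydroxycholesterol, an inhibitor of SREBP processing, rose 1.36-fold (adjusted p = 0.0373 and 0.00112). Of 25 other genes of fatty acid synthesis and activation 9 were lower and 2 higher, against 10.7% and 12.3% of all genes tested. Me1, the malic enzyme that supplies NADPH, fell 1.62-fold, Fabp5, a fatty acid binding protein, 1.61-fold, Slc25a1, the mitochondrial citrate carrier, 1.19-fold and Dbi, which binds acyl-CoA, 1.24-fold. The rises were Acacb, the mitochondrial acetyl-CoA carboxylase (3.64 ± 0.735 CPM in KO libraries and 1.94 ± 0.314 CPM in WT libraries), and Mid1ip1, which promotes polymerization of the carboxylases (1.16-fold). Acacb and Mid1ip1 are named for their small number, after the values were seen.

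Further lists covered SREBP processing, sterol export, trafficking and isoprenoid use, to be read against the 23.0% of all genes tested that were called. Of 8 processing and escort genes 1 was lower and 1 higher. Erlin2, which acts in the degradation of membrane proteins, fell 1.09-fold and Syvn1, a ubiquitin ligase of the endoplasmic reticulum, rose 1.16-fold, while the proteases Mbtps1 and Mbtps2 were not called. A list of 8 genes covered sterol export and the liver X receptors, which sense oxysterols, with genes of their response. Of these Abcg1, a sterol exporter, fell 1.10-fold, and Arl4c and Abca7 rose 1.12-fold and 1.12-fold. The other 5, among them the receptor genes Nr1h2 and Nr1h3, were not called. Among 14 trafficking and storage genes 3 were lower and 2 higher. Gramd1b, a carrier of sterol from the plasma membrane, had 57.3, 49.0 and 49.6 CPM in KO libraries, against 32.6, 34.9 and 37.3 CPM in WT libraries, and rose 1.49-fold (adjusted p = 9.42e-05). Its relative Gramd1a rose 1.13-fold, while the lipid carriers Stard5 and Osbp fell 1.14-fold and 1.08-fold. Of 12 genes that use isoprenoids 2 were lower, the prenyl protein protease Zmpste24 by 1.10-fold and the farnesyltransferase subunit Fntb by 1.13-fold.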

How the data were processed

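The authors deposited, for each library, raw read counts per gene and RSEM tables. Per the submitters' processing notes, bcl2fastq 2.17, STAR 2.5.1b and RSEM 1.2.28 were used; the build named there is GRCh38, a human build, while the identifiers are mouse, so the alignment build is uncertain. Symbols and positions came from GENCODE M21 (GRCm38) by identifier (50376 of 50600 matched), and promoters from RefSeq (GRCm38.p6). The deposited read counts for the strand opposite to the read were used, since 95.5% to 95.7% of stranded counts lay there; reads naming no gene (18.4% to 19.8%) were left out. The deposited RSEM expected counts (estimated reads, rounded here) and TPM values, scaled for length and total, served for alternatives and for levels between genes.

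Genes passing filterByExpr were compared with edgeR 4.0.16 in R 4.3.3 (TMM, quasi-likelihood, no block). SE came from the F statistic and is approximate. Levels are mean ± SD. Libraries of 1 genotype differed by 4.33 to 7.48 times the counting variance per gene, so no pair differed by counting noise alone. The members and lists were chosen with earlier results of these data known; all 36 members are reported, and up to 4 called genes by increasing p of each wider list, except a result on other sterol enzymes that is not reported here. The method was tested on simulated data. Alternatives were RLE and upper quartile scaling, DESeq2 1.42.0, other filters, expected counts, unstranded counts, limma 3.58.1 on TPM, a replicate block, leaving out each library and, added after the data were seen, robust moderation. The orientation of promoter windows was checked against GENCODE transcripts (25 of 29 genes matched in their last 30 bases).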

Additional observations from a re-analysis of the deposited data

How the results depend on the processing

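Over 17 alternatives the 36 genes gave 611 values, of which 545 kept their direction and their side of the threshold, 50 lost a call, 13 gained a call and 3 changed sign, all in genes that were not called: Ggps1 (-0.020 to 0.10 over the libraries left out) and Tm7sf2 (-0.099 to 0.025). Of the 24 called genes 12 kept their call under every alternative run: Fasn, Scd1, Scd2, Srebf1, Srebf2, Acat2, Mvk, Sqle, Fdft1, Hsd17b7, Msmo1 and Sc5d. With limma on log2(TPM + 1) and log2(TPM + 0.1), 1927 and 1857 genes were called, 13 and 12 members lower and 1 higher in each, with 9 and 8 sterol and 2 and 2 fatty acid genes lower and a fatty acid median of -0.14 and -0.15; the cause was not tested. Members called higher numbered 1 with DESeq2, with no low count filter and with unstranded counts, and 1 to 2 over the libraries left out. They numbered 3 with RLE, upper quartile and a mean of at least 5 CPM. Fatty acid genes called higher numbered 2 with RLE, upper quartile, a mean of at least 5 CPM and robust moderation, and 1 to 2 over the libraries left out. Fdps gave no value at a mean of at least 5 CPM, as it fell below it. The replicate letters are not stated to pair libraries, and deviations of same-letter libraries correlated between -0.03 and 0.08; with the replicate block 3807 genes were called, 23 members lower and 2 higher, with 16 sterol genes lower. Robust moderation called 3989 genes and 21 members lower. Mvd and Stard4, which were not called, had 127 to 334 counts per library. Fdps and Idi1, which were called, had 24 to 273 counts per library beside RSEM counts 17.4 and 5.44 times as high.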
